A study of Homo sapiens and Mus musculus with 56 samples.

Results

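The genes described are 8 receptor chains for haematopoietic growth factors, FLT3, KIT, CSF1R, CSF3R, CSF2RA, CSF2RB, IL3RA and IL7R, among 19775 human genes with a probe set of their own. They were chosen by symbol, as every probe set annotated to one of these names alone (13 of 54675 human probe sets), and their mouse orthologs by name (14 of 45101 probe sets, 8 of 18193 genes). Gene expression was measured on 56 Affymetrix arrays, 44 human and 12 mouse, in 5 leukaemia models. Every model was exposed to EPZ004777, a compound that blocks the histone methyltransferase DOT1L, to MI-2-2, a compound that blocks the binding of menin to KMT2A (MLL) proteins, to the combination, or to the solvent DMSO.

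RS4;11, SEM and REH received 3 µM EPZ004777, 10 µM MI-2-2, the combination or DMSO for 6 days. MOLM-13 and the mouse MLL-AF9 cells received 3 µM EPZ004777, 3 µM MI-2-2, the combination or DMSO for 4 days. The labels were taken to mean that the combination held each compound at its single dose. Among the human lines, RS4;11 and SEM carry KMT2A-AFF1 in B-precursor leukaemia, REH comes from B-precursor leukaemia in which KMT2A is not fused, and MOLM-13 comes from acute myeloid leukaemia with KMT2A-MLLT3 and an internal tandem duplication in FLT3. The mouse cells are a primary culture transformed by MLL-AF9, the mouse-model counterpart of the fusion in MOLM-13. All 4 mouse groups grew with 100 ng/ml stem cell factor, the ligand of KIT, 6 ng/ml interleukin 3, the ligand of IL3RA with CSF2RB, and 10 ng/ml interleukin 6, and the human lines grew without added cytokines per the labels' protocols. Each human model is 1 established line, and the number of animals behind the mouse culture is not given in the sources used here. Groups held 3 arrays, apart from 2 for DMSO in RS4;11 and 2 each for the combination, MI-2-2 and DMSO in SEM. The labels call the replicates biological without saying what separated them, so p-values measure the spread between these arrays, whose small number limits the precision.

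These receptors pass survival, growth and differentiation signals from cytokines into blood cells. FLT3, KIT and CSF1R are receptor tyrosine kinases, whose own kinase domain signals once the ligand brings the receptors together. CSF3R, CSF2RA, CSF2RB, IL3RA and IL7R have no kinase and signal through bound JAK kinases and STAT proteins. FLT3 and IL7R are characteristic of early lymphoid precursors, and CSF1R, CSF3R and CSF2RA of monocytes and granulocytes. Mutant FLT3 is a frequent driver of acute myeloid leukaemia, and high FLT3 expression is common in leukaemias with a KMT2A fusion.

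Values are RMA log2 signals, so a difference of 1 is a doubling of the signal. Differences were tested in limma within each model, with p-values adjusted over all genes tested there, and a gene was called at an adjusted p under 0.05. Within groups, arrays correlated at 0.987 or more over all genes, except in the mouse cells, where the lowest value was 0.962. B-lineage markers with a probe set were above percentile 40 of the array for 7 of 7 genes in RS4;11 and SEM and 6 of 7 in REH, where VPREB1 was below it. The mouse cells and MOLM-13 had 7 of 7 genes of the myeloid marker list above it. The B-lineage list had 4 of 7 genes above percentile 40 in MOLM-13 and 5 of 7 in the mouse cells. The myeloid list had 5 of 7 in RS4;11 and SEM and 3 of 7 in REH. Of the 6 T and NK cell markers, 5 were below that level in each of the 3 lymphoid lines. In SEM the 3′ minus 5′ actin signal, a measure of how far from the 3′ end cDNA was copied, was 1.83 at the lowest and 1.93 at the highest for MI-2-2 or combination RNA, against 2.41 and 2.48 for DMSO RNA. The REH DMSO arrays spread from 2.75 to 3.65 in the same measure, and replicates 2 and 3 of the mouse combination gave 1.12 and 1.99. MOLM-13 arrays had medians of 6.18 to 6.25, against 5.54 to 5.66 for the other human lines, and were not tested against them for level.

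The promoter windows below show the letters around the transcription start of 5 members, because IL7R, CSF1R, KIT, IL3RA and FLT3 had the largest called changes in the human lines. Sequences are from RefSeq on build GRCh38.p14, 5′ to 3′ on the strand of the gene, from 250 bases before to 30 bases after an annotated start. Capitals mark matches, on either strand, to the PU.1 core GAGGAA, the RUNX site TGTGGT, the MEIS site TGACAG or the STAT site TTCNNNGAA. The C/EBP site TTGNNCAA was searched as well and matched in none of the 9 human windows found for 7 members. The windows are FLT3 at chr13:28100547-28100826 (minus strand), CSF1R at the second of its annotated starts at chr5:150086525-150086804 (minus), IL7R at chr5:35856641-35856920 (plus), IL3RA at chrX:1336535-1336814 (plus) and KIT at chr4:54657707-54657986 (plus).
FLT3: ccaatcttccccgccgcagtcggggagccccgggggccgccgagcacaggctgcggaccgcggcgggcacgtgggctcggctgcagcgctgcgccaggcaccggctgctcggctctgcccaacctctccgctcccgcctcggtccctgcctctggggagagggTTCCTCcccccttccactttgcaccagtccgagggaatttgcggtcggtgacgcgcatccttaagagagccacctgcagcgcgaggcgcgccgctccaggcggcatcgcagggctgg
CSF1R: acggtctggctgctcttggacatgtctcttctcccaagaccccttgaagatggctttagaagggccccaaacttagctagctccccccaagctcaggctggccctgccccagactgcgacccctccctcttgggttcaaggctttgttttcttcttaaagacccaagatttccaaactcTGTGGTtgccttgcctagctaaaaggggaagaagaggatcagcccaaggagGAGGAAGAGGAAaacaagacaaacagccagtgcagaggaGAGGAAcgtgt
IL7R: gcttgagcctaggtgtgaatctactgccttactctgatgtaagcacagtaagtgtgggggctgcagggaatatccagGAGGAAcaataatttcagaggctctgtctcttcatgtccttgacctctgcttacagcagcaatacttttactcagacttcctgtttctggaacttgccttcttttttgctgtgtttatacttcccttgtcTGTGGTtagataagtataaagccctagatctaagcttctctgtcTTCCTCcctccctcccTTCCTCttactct
IL3RA: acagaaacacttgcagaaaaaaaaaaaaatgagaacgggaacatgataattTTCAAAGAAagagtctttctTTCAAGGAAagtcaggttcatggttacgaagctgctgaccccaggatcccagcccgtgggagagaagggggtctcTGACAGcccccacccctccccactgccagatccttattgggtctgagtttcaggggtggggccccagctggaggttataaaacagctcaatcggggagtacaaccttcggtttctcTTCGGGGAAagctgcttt
KIT: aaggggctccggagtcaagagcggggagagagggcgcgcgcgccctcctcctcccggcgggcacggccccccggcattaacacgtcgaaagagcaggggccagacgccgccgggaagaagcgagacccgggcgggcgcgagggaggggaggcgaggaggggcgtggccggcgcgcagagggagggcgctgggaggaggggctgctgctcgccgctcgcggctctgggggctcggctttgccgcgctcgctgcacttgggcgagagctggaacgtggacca

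The FLT3 window held 1 PU.1 core, on the strand opposite to the gene. The window at the first annotated CSF1R start, not printed, held 1 MEIS site and no PU.1 core or RUNX site. The printed CSF1R window held 3 PU.1 cores and 1 RUNX site, and the adjacent pair of cores begins 20 and 14 bases before the start. IL7R likewise held 3 PU.1 cores and 1 RUNX site. IL3RA held 3 STAT sites, 1 of them after the start, and 1 MEIS site. KIT held none of the motifs. Among all 35116 RefSeq windows of the same 300 bases, which run to 50 bases after the start, 27.9% held the PU.1 core, 13.1% the RUNX site, 5.6% the C/EBP site, 15.8% the MEIS site and 7.7% the STAT site. A match describes the letters alone.

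Under DMSO, the levels of the members were compared between the 3 lymphoid lines. FLT3 was highest in SEM, where the arrays read 12.90 and 12.88, with RS4;11 at 11.00 and 11.15 and REH at 10.85, 10.39 and 10.75. The lines did not overlap in FLT3. SEM exceeded RS4;11 by 1.82 ± 0.11 (SE, adjusted p = 4.9e-16) and REH by 2.23 ± 0.10 (SE, adjusted p = 5.46e-20), and RS4;11 exceeded REH by 0.41 ± 0.10 (SE, adjusted p = 0.000479). KIT, the stem cell factor receptor, was near the bottom of the arrays in RS4;11 (3.00 and 2.61) and SEM (2.87 and 2.75), against 5.78, 5.37 and 5.38 in REH. RS4;11 lay below REH with a difference of -2.70 ± 0.16 (SE, adjusted p = 2.18e-16) and SEM with one of -2.70 ± 0.16 (SE, adjusted p = 2.03e-16). KIT was above percentile 40 on no array of RS4;11 or SEM. It passed the filter of this fit through REH and MOLM-13 arrays, so the test adds little to the levels themselves. CSF1R, the receptor of macrophage colony-stimulating factor, was higher in RS4;11 than in REH by 1.28 ± 0.16 (SE, adjusted p = 2.42e-08), and the difference between SEM and REH was -0.01 (95% interval -0.33 to 0.32, adjusted p = 0.978).

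IL3RA, the alpha chain of the interleukin 3 receptor, ran in the order SEM, RS4;11, REH, with arrays at 6.46 and 6.63 in SEM, 5.86 and 5.75 in RS4;11 and 5.25, 5.44 and 5.52 in REH. Each step passed the test, and SEM exceeded REH by 1.14 ± 0.11 (SE, adjusted p = 8.64e-11). CSF2RB, the beta chain shared by the receptors of interleukin 3, interleukin 5 and GM-CSF, ran in the opposite order, and SEM minus REH was -1.31 ± 0.11 (SE, adjusted p = 1.95e-12). CSF2RA, the alpha chain for GM-CSF, stood higher in RS4;11 than in REH by 0.42 ± 0.12 (SE, adjusted p = 0.00276) and was close to percentile 40 in all 3 lines. CSF3R, the receptor of granulocyte colony-stimulating factor, lay near percentile 20 in each of the 3 and no pair was called, with 0.07 for SEM minus REH (95% interval -0.23 to 0.37). IL7R was near the top of all these arrays, at 12.59 and 12.64 in SEM, 12.86 and 12.77 in RS4;11 and between 12.96 and 13.22 in REH. Its difference of -0.24 ± 0.10 (SE, adjusted p = 0.0286) between RS4;11 and REH and of -0.45 ± 0.10 (SE, adjusted p = 0.000146) between SEM and REH had the opposite sign on its second probe set (0.18 and 0.11, uncalled). RS4;11 and REH differed by the test in 7 of 8 members, SEM and REH in 5 and SEM and RS4;11 in 5, where 55.8%, 56.0% and 34.3% of all genes differed. In these counts CSF3R passed the filter through MOLM-13 arrays alone, and KIT through REH and MOLM-13 arrays.

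**Figure D1:**
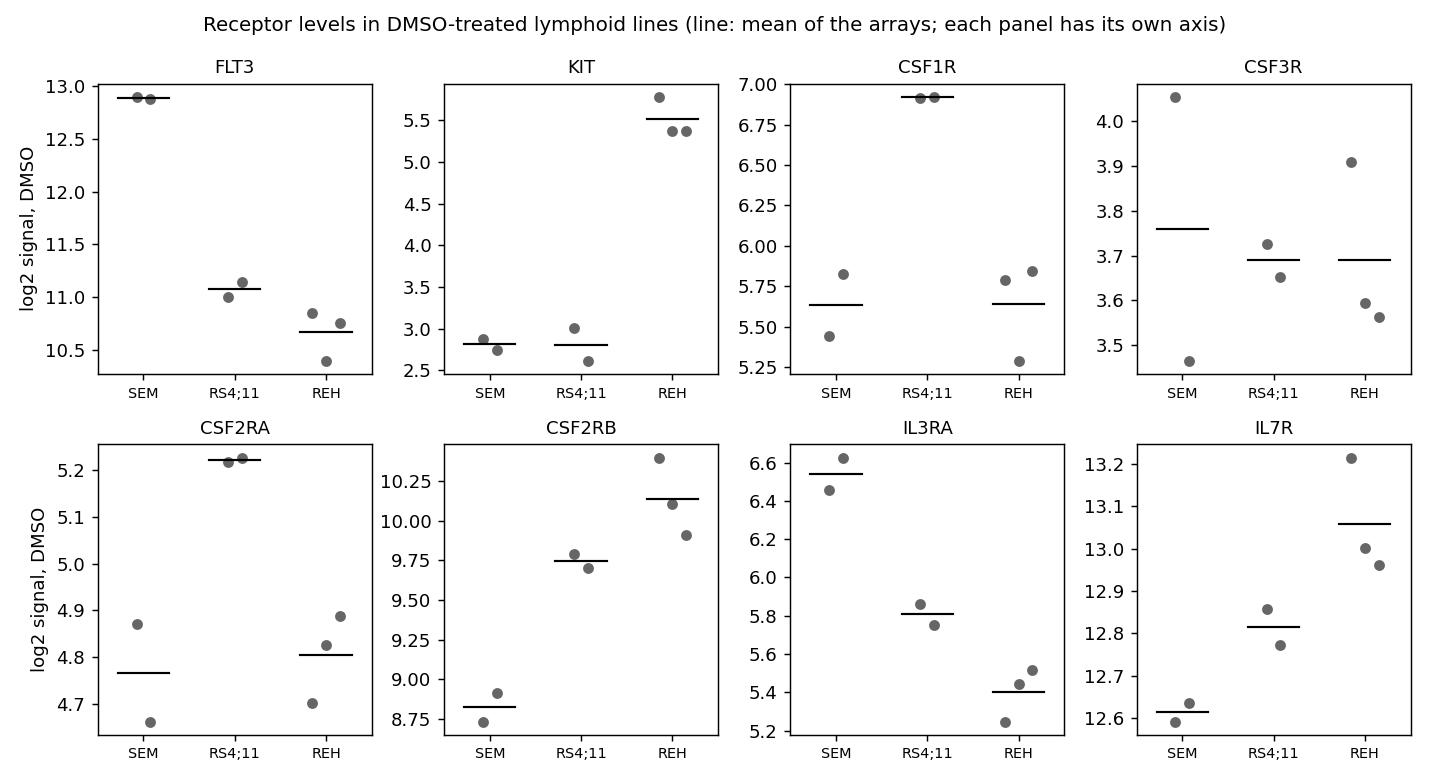
RMA log2 signal (vertical axis) of the 8 genes on each DMSO array of SEM, RS4;11 and REH, 1 point per array, with a line at the mean. FLT3 and IL3RA are highest in SEM, KIT is highest in REH, and CSF3R overlaps in all 3 lines.

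MOLM-13 had FLT3 at percentile 96.1 of the array under DMSO, CSF2RB at 89.6, CSF3R at 84.5, IL7R at 84.1, IL3RA at 83.7, CSF2RA at 83.4, CSF1R at 74.5 and KIT at 26.9. Mouse Csf2rb stood at percentile 96.5, Csf2ra at 92.4, Il3ra at 77.2, Kit at 66.6, Csf1r at 63.4, Csf3r at 57.0, Flt3 at 54.3 and Il7r at 19.1. A percentile places a probe set on its array and gives no order between genes.

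The number of members called is given beside the share of all genes called, which also varied between models and treatments. In RS4;11, 6 members were bright enough to test. Limma called 0 of them with EPZ004777 (3 had an unadjusted p under 0.05), 1 with MI-2-2 and 1 with the combination, where 6.63%, 12.6% and 23.5% of all genes were called. In SEM 0 of 6 were called with EPZ004777 (2 at an unadjusted p under 0.05), 4 with MI-2-2 and 5 with the combination, against 8.78%, 17.8% and 29.6% of all genes. In REH, with 7 members tested, 2 were called with EPZ004777, 2 with the combination and 0 with MI-2-2 (1 had an unadjusted p under 0.05), against 4.11%, 7.49% and 1.34% of all genes in that order. MOLM-13 had 5, 5 and 7 of 7 members called with EPZ004777, MI-2-2 and the combination, against 27.7%, 18.5% and 48.9%. The mouse cells had 2, 1 and 7 of 8 called, against 5.60%, 5.26% and 64.7%.

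The counts of tested members need care, since CSF2RA in SEM and Il7r in the mouse cells passed the brightness filter only through treated arrays, and Flt3 in the mouse cells only through its 3 DMSO arrays. KIT and CSF3R in RS4;11 and SEM, CSF3R in REH and KIT in MOLM-13 were too dim to test. In these bulk samples fewer cells of a type and less RNA per cell cannot be told apart.

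**Figure D2:**
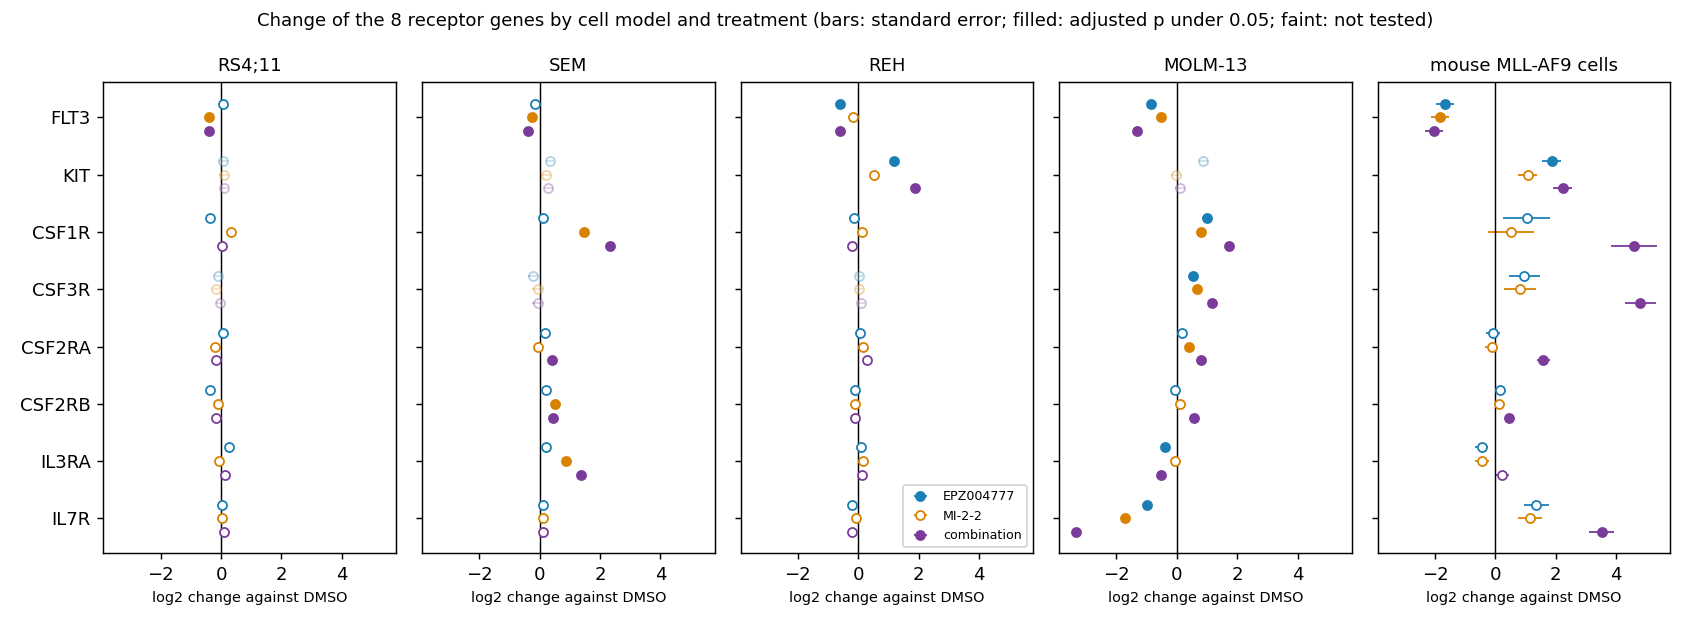
Log2 change against DMSO (horizontal axis) of the 8 genes in the 5 models, with bars of 1 standard error. Filled points passed an adjusted p of 0.05, open points did not, and faint points were too dim to test. FLT3 lies left of zero in all models with the combination, and IL7R lies at -3.34 in MOLM-13 and at 3.52 in the mouse cells.

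FLT3, the receptor of FLT3 ligand on early progenitors, was lower with the combination in all 5 models. The size ranged from -0.38 in RS4;11 to -2.03 in the mouse cells. In RS4;11 FLT3 fell with MI-2-2 and with the combination. The arrays read 11.22, 11.14 and 11.07 with EPZ004777, 10.62, 10.78 and 10.63 with MI-2-2, 10.68, 10.67 and 10.73 with the combination and 11.00 and 11.15 with DMSO. All MI-2-2 and combination arrays lay below both DMSO arrays, whereas EPZ004777 and DMSO overlapped. The change was -0.40 ± 0.08 (SE, adjusted p = 0.0072) with MI-2-2, -0.38 ± 0.08 (SE, adjusted p = 0.0046) with the combination and 0.07 (95% interval -0.10 to 0.24, adjusted p = 0.649) with EPZ004777. Both calls rested on DMSO replicate 3, without which the changes were -0.32 and -0.31 at adjusted p = 0.0906 and 0.0635.

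In SEM the FLT3 arrays read 12.75, 12.73 and 12.73 with EPZ004777, 12.59 and 12.69 with MI-2-2, 12.45 and 12.53 with the combination and 12.90 and 12.88 with DMSO. Every treated array was below both DMSO arrays. FLT3 fell by the test with MI-2-2, at -0.25 ± 0.07 (SE, adjusted p = 0.0394), and with the combination, at -0.40 ± 0.07 (SE, adjusted p = 0.00354), and the EPZ004777 change was -0.15 (95% interval -0.30 to -0.01, adjusted p = 0.167). The MI-2-2 call was lost without any 1 of DMSO replicates 2 and 3 (adjusted p = 0.160 and 0.145), MI-2-2 replicates 1 and 3 (0.169 and 0.0660) and several other single arrays, while the combination's call held in each of these. Once the actin 3′ minus 5′ signal was a covariate, the combination's change was -0.12 at adjusted p = 0.965 and that of MI-2-2 was 0.041 at 0.990.

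In REH, the line without a KMT2A fusion, FLT3 fell with EPZ004777 and with the combination. Its arrays read 10.07, 10.14 and 9.99 with EPZ004777, 10.42, 10.64 and 10.42 with MI-2-2, 10.01, 9.96 and 10.21 with the combination and 10.85, 10.39 and 10.75 with DMSO. EPZ004777 and combination arrays were all below the lowest DMSO array, and MI-2-2 arrays overlapped with DMSO. The change was -0.60 ± 0.12 (SE, adjusted p = 0.0166) with EPZ004777, -0.61 ± 0.12 (SE, adjusted p = 0.0106) with the combination and -0.17 (95% interval -0.44 to 0.10, adjusted p = 0.48) with MI-2-2. Without DMSO replicates 1 and 3, the DMSO arrays with the higher actin values, the changes were -0.33 and -0.34 at adjusted p = 0.243 and 0.221. Leaving out replicate 1 of DMSO (adjusted p = 0.0507), or replicate 1 (0.0666) or 3 (0.0759) of EPZ004777, also ended the EPZ004777 call, and the combination's call ended without replicate 1 or replicate 2 (0.0597) of the combination. With the actin covariate the changes were -0.43 and -0.44 at adjusted p = 0.147 and 0.132.

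MOLM-13, whose FLT3 carries the internal tandem duplication, had a fall with each treatment. FLT3 read 11.54, 11.52 and 11.58 with EPZ004777, 11.76, 11.85 and 12.07 with MI-2-2, 11.03, 11.11 and 11.09 with the combination and 12.45, 12.41 and 12.36 with DMSO. No treated array reached a DMSO array, and the combination lay below both single compounds. The change was -0.86 ± 0.07 (SE, adjusted p = 8.75e-06) with EPZ004777, -0.51 ± 0.07 (SE, adjusted p = 0.000595) with MI-2-2 and -1.33 ± 0.07 (SE, adjusted p = 8.66e-08) with the combination, the last a signal 2.51-fold lower. The arrays do not tell the duplicated from the normal allele.

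Mouse Flt3 was above percentile 40 under DMSO alone. It read 4.96, 4.85 and 5.14 with EPZ004777, 4.68, 5.17 and 4.59 with MI-2-2, 4.84, 4.45 and 4.54 with the combination and 5.96, 6.62 and 7.35 with DMSO. The groups did not overlap with DMSO, whose 3 arrays spread widely. The change was -1.66 ± 0.29 (SE, adjusted p = 0.00626), -1.83 ± 0.29 (SE, adjusted p = 0.00379) and -2.03 ± 0.29 (SE, adjusted p = 0.00012) in the same order of treatments. The 3 treated groups overlapped with each other close to the dim end of the scale.

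**Figure D3:**
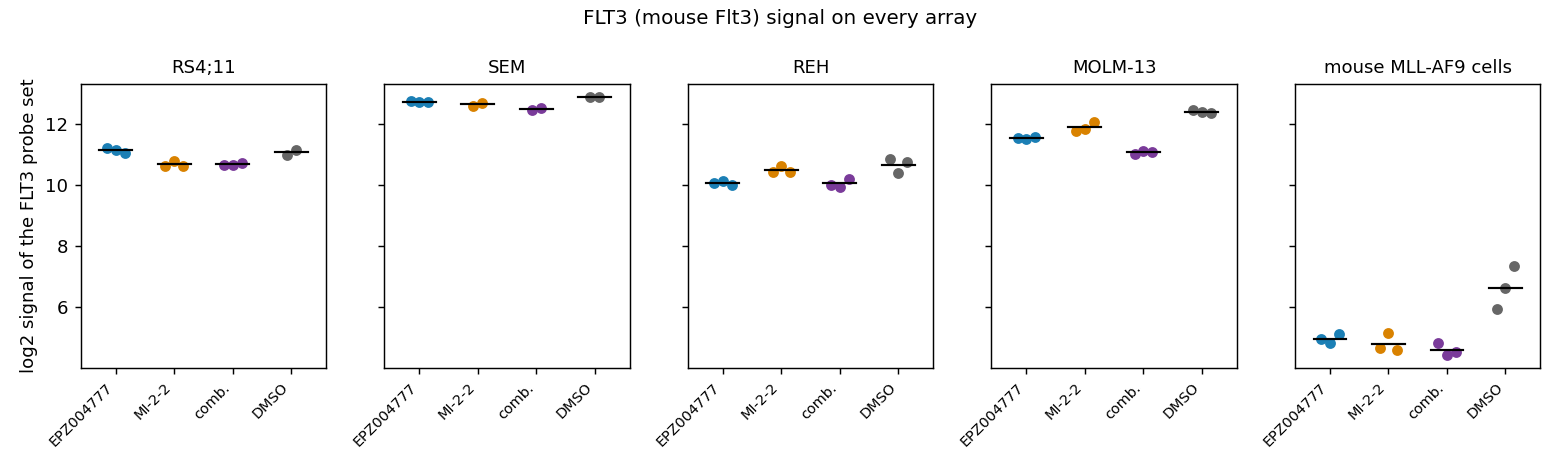
FLT3 RMA log2 signal (vertical axis) on every array, 1 panel per model, with EPZ004777, MI-2-2, the combination and DMSO along the horizontal axis and a line at each mean. DMSO is above every combination array in each panel, and in MOLM-13 the combination reads 11.03 to 11.11 against 12.36 to 12.45 with DMSO.

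KIT was called higher in REH and the mouse cells in the arms that held EPZ004777. With MI-2-2 alone KIT also exceeded every DMSO array in both models, though uncalled. In REH it read 6.64, 6.70 and 6.69 with EPZ004777, 5.92, 6.27 and 5.92 with MI-2-2, 7.47, 7.37 and 7.36 with the combination and 5.78, 5.37 and 5.38 with DMSO. Every treated array exceeded every DMSO array, and the combination stood above both single compounds. The change was 1.17 ± 0.13 (SE, adjusted p = 0.000235) with EPZ004777 and 1.89 ± 0.13 (SE, adjusted p = 3.61e-06) with the combination, a signal 3.71-fold higher, and 0.53 (95% interval 0.26 to 0.80, adjusted p = 0.0654) with MI-2-2. These KIT calls against DMSO held under every alternative, the actin covariate included.

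Mouse Kit read 10.25, 10.48 and 9.60 with EPZ004777, 9.44, 9.28 and 9.23 with MI-2-2, 10.92, 10.16 and 10.34 with the combination and 7.53, 8.62 and 8.60 with DMSO. All treated arrays exceeded all DMSO arrays. The change was 1.86 ± 0.32 (SE, adjusted p = 0.00518) with EPZ004777, 2.23 ± 0.32 (SE, adjusted p = 0.000114) with the combination and 1.07 (95% interval 0.36 to 1.77, adjusted p = 0.096) with MI-2-2. These calls belong to 1 of its probe sets, since the second gave 1.42 with EPZ004777 at adjusted p = 0.259 and 0.46 with the combination at 0.479. In the other human models KIT stayed dim. MOLM-13 read 5.48, 5.36 and 5.61 with EPZ004777, 4.38, 4.95 and 4.41 with MI-2-2, 4.75, 4.72 and 4.68 with the combination and 4.82, 4.36 and 4.65 with DMSO, and only the EPZ004777 arrays lay above all DMSO arrays. In RS4;11 and SEM the highest KIT array read 3.32.

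CSF1R, which drives monocyte and macrophage development, rose in SEM, MOLM-13 and the mouse cells. In SEM it read 5.82, 5.60 and 5.79 with EPZ004777, 7.11 and 7.09 with MI-2-2, 7.87 and 8.09 with the combination and 5.44 and 5.82 with DMSO. MI-2-2 and combination arrays lay far above both DMSO arrays, and EPZ004777 overlapped with DMSO. The change was 1.47 ± 0.14 (SE, adjusted p = 0.000452) with MI-2-2, 2.35 ± 0.14 (SE, adjusted p = 1.72e-05) with the combination, a signal 5.09-fold higher, and 0.10 (95% interval -0.19 to 0.40, adjusted p = 0.663) with EPZ004777. The mean of the myeloid marker list in SEM stood at 5.31 to 5.51 with EPZ004777, 6.17 to 6.25 with MI-2-2, 6.77 to 6.87 with the combination and 5.12 to 5.15 with DMSO, although ELANE and PRTN3 of that list stayed below percentile 40. The stroma list, with COL1A1 among its 4 genes and DCN below percentile 40, stood at 5.68 to 6.00 with the combination and 4.14 to 4.50 with DMSO. It stood at 5.14 to 5.33 with EPZ004777, where CSF1R overlapped with DMSO, and at 5.34 to 5.69 with MI-2-2. The B-lineage list in SEM stood at 11.12 to 11.30 with MI-2-2 and 10.95 to 11.05 with the combination. With EPZ004777 it stood at 10.83 to 10.92 and with DMSO at 10.80 to 10.84. The part of these lists in the result was not tested. With the actin covariate the change in CSF1R was 3.86 at adjusted p = 0.0819 for the combination and 3.03 at 0.317 for MI-2-2.

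In RS4;11, the other KMT2A-AFF1 line, CSF1R read 6.76, 6.51 and 6.37 with EPZ004777, 7.41, 7.27 and 7.09 with MI-2-2, 6.82, 7.07 and 7.01 with the combination and 6.92 and 6.92 with DMSO. EPZ004777 arrays were all below and MI-2-2 arrays all above DMSO, though neither passed. The change was -0.37 (95% interval -0.65 to -0.10, adjusted p = 0.107) with EPZ004777, 0.34 (95% interval 0.06 to 0.61, adjusted p = 0.111) with MI-2-2 and 0.05 (95% interval -0.23 to 0.32, adjusted p = 0.823) with the combination. In REH no change in CSF1R passed, and for the combination it was -0.21 (95% interval -0.52 to 0.10, adjusted p = 0.407). The myeloid list was nevertheless higher on every treated RS4;11 array, at 5.90 to 5.97 with the combination and 5.32 to 5.39 with DMSO. With EPZ004777 it stood at 5.58 to 5.64 and with MI-2-2 at 5.66 to 5.71. In REH the list overlapped with DMSO for each treatment.

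MOLM-13 read CSF1R at 9.95, 9.88 and 9.99 with EPZ004777, 9.34, 9.79 and 10.09 with MI-2-2, 10.68, 10.65 and 10.74 with the combination and 9.14, 8.87 and 8.84 with DMSO. Every treated array was above every DMSO array. It rose by 1.00 ± 0.15 (SE, adjusted p = 0.000732) with EPZ004777, 0.79 ± 0.15 (SE, adjusted p = 0.00481) with MI-2-2 and 1.74 ± 0.15 (SE, adjusted p = 4.01e-06) with the combination. Mouse Csf1r read 9.56, 9.51 and 7.98 with EPZ004777, 8.21, 8.96 and 8.30 with MI-2-2, 12.18, 12.91 and 12.62 with the combination and 5.80, 9.20 and 8.94 with DMSO. The combination was separate from all other groups, while the single compounds overlapped with the widely spread DMSO arrays. The change was 4.59 ± 0.77 (SE, adjusted p = 0.000366) with the combination, 1.04 (95% interval -0.67 to 2.74, adjusted p = 0.727) with EPZ004777 and 0.51 (95% interval -1.19 to 2.22, adjusted p = 0.979) with MI-2-2. DMSO replicate 1 was low in Csf1r, Csf3r, Kit and Il7r, and without it the combination's change in Csf1r was 3.50 at adjusted p = 0.00012. The other 2 Csf1r probe sets gave 3.82 and 1.89 for the combination.

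CSF3R, which supports neutrophil production, rose in both myeloid models. In MOLM-13 it read 10.91, 10.95 and 10.90 with EPZ004777, 10.79, 11.05 and 11.31 with MI-2-2, 11.49, 11.57 and 11.57 with the combination and 10.60, 10.20 and 10.31 with DMSO. The treated groups did not overlap with DMSO, and the combination was the highest. The change was 0.55 ± 0.12 (SE, adjusted p = 0.00735), 0.68 ± 0.12 (SE, adjusted p = 0.00347) and 1.18 ± 0.12 (SE, adjusted p = 1.63e-05) in this order of treatments. Mouse Csf3r read 8.23, 8.34 and 7.50 with EPZ004777, 7.75, 8.12 and 7.75 with MI-2-2, 11.03, 12.24 and 12.33 with the combination and 5.72, 7.75 and 7.72 with DMSO. Again only the combination stood clear of DMSO. It rose by 4.81 ± 0.52 (SE, adjusted p = 1.47e-05) with the combination, a signal 28-fold higher (4.13, or 17.6-fold, without DMSO replicate 1), and the changes with EPZ004777 and MI-2-2 were 0.96 (95% interval -0.19 to 2.12, adjusted p = 0.505) and 0.81 (95% interval -0.35 to 1.96, adjusted p = 0.624). In the lymphoid lines the highest CSF3R array read 4.05.

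The myeloid marker list was higher in mean on all treated arrays as well. In MOLM-13 it stood at 12.95 to 12.97 with EPZ004777, 12.39 to 12.53 with MI-2-2, 13.14 to 13.17 with the combination and 12.25 to 12.33 with DMSO. The mouse cells had it at 11.82 to 12.20 with EPZ004777, 11.99 to 12.07 with MI-2-2, 12.60 to 12.79 with the combination and 11.01 to 11.72 with DMSO. Their megakaryocyte list, with all 4 genes above percentile 40, stood at 6.61 to 6.99 with EPZ004777, 6.63 to 6.85 with MI-2-2, 8.13 to 8.84 with the combination and 6.19 to 6.57 with DMSO. The part of these lists in the changes of CSF1R, CSF3R and CSF2RA was not tested.

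CSF2RA, the ligand-binding chain for GM-CSF, rose in MOLM-13 with MI-2-2 and the combination. It read 10.37, 10.30 and 10.44 with EPZ004777, 10.45, 10.60 and 10.73 with MI-2-2, 10.94, 10.99 and 11.05 with the combination and 10.22, 10.09 and 10.29 with DMSO. All treated arrays exceeded all DMSO arrays. The change was 0.39 ± 0.08 (SE, adjusted p = 0.00514) with MI-2-2, 0.80 ± 0.08 (SE, adjusted p = 8.52e-06) with the combination and 0.17 (95% interval 0.00 to 0.34, adjusted p = 0.129) with EPZ004777. Mouse Csf2ra rose with the combination, at 13.01, 13.79 and 13.81, against 11.56, 12.21 and 12.07 with DMSO, a change of 1.59 ± 0.22 (SE, adjusted p = 9.39e-05). With EPZ004777 it was -0.08 (95% interval -0.57 to 0.41, adjusted p = 0.999) and with MI-2-2 -0.12 (95% interval -0.61 to 0.37, adjusted p = 0.995). In SEM CSF2RA read 5.11 and 5.23 with the combination and 4.87 and 4.66 with DMSO, a change of 0.40 ± 0.10 (SE, adjusted p = 0.0168) that was lost without combination replicate 3 or DMSO replicate 3, with the replicate number as a block (0.41 at adjusted p = 0.0738) and with the actin covariate (0.69 at 0.838). The CSF2RA probe sets may bind other transcripts, since their identifiers end in _s_at or _x_at.

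CSF2RB rose in SEM, where the arrays read 9.14, 9.05 and 8.93 with EPZ004777, 9.32 and 9.36 with MI-2-2, 9.27 and 9.29 with the combination and 8.73 and 8.92 with DMSO. Treated arrays all exceeded DMSO arrays. The change was 0.52 ± 0.09 (SE, adjusted p = 0.00708) with MI-2-2, 0.46 ± 0.09 (SE, adjusted p = 0.00761) with the combination and 0.22 (95% interval 0.02 to 0.41, adjusted p = 0.153) with EPZ004777. Both calls were lost without DMSO replicate 2 (adjusted p = 0.053 for MI-2-2 and 0.0568 for the combination), with the replicate block (0.0596 and 0.0581) and with the actin covariate (0.841 and 0.785). In RS4;11 EPZ004777 gave -0.36 (95% interval -0.58 to -0.15, adjusted p = 0.0534), with all 3 arrays below DMSO and the adjusted p just over the threshold. In MOLM-13 CSF2RB rose with the combination, at 11.72, 11.74 and 11.67, against 11.32, 11.09 and 11.05 with DMSO, a change of 0.56 ± 0.07 (SE, adjusted p = 7.21e-05). The single compounds overlapped with DMSO there.

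Mouse Csf2rb read 13.41, 13.11 and 12.97 with the combination and 12.69, 12.78 and 12.72 with DMSO. The change of 0.44 ± 0.11 (SE, adjusted p = 0.00422) was not seen on its second probe set, which gave -0.012 at adjusted p = 0.977. Mice carry a further beta chain gene, Csf2rb2, dedicated to interleukin 3 and close in sequence to Csf2rb, so the split of signal between them is uncertain. Csf2rb2 read 12.17, 12.63 and 12.36 with the combination and 10.32, 10.57 and 10.43 with DMSO, without overlap, and rose by 1.95 ± 0.13 (SE, adjusted p = 4e-07).

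IL3RA moved in opposite directions in SEM and MOLM-13. In SEM it read 6.81, 6.77 and 6.67 with EPZ004777, 7.26 and 7.60 with MI-2-2, 7.79 and 8.03 with the combination and 6.46 and 6.63 with DMSO. Each treated array was above both DMSO arrays. IL3RA rose by 0.89 ± 0.13 (SE, adjusted p = 0.00343) with MI-2-2 and 1.37 ± 0.13 (SE, adjusted p = 0.000206) with the combination, and the EPZ004777 change was 0.21 (95% interval -0.07 to 0.49, adjusted p = 0.333). With the actin covariate neither call was kept, at 2.15 (adjusted p = 0.554) for MI-2-2 and 2.59 (0.219) for the combination. In MOLM-13 the arrays read 9.97, 9.77 and 9.81 with EPZ004777, 10.06, 10.28 and 10.23 with MI-2-2, 9.66, 9.79 and 9.67 with the combination and 10.28, 10.31 and 10.13 with DMSO. EPZ004777 and combination arrays were all below DMSO, and MI-2-2 overlapped with it. IL3RA fell by the test with EPZ004777, at -0.39 ± 0.08 (SE, adjusted p = 0.00381), and with the combination, at -0.54 ± 0.08 (SE, adjusted p = 0.000175), and the MI-2-2 change was -0.05 (95% interval -0.23 to 0.12, adjusted p = 0.701). SEM and MOLM-13 differed in MI-2-2 dose and in days of treatment, and their changes were not tested against each other.

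For mouse Il3ra no treatment passed against DMSO. The combination arrays read 9.43, 10.15 and 10.44, against 9.49, 9.95 and 9.90 with DMSO, and the change was 0.23 (95% interval -0.27 to 0.72, adjusted p = 0.398). In RS4;11 IL3RA was 0.28 (95% interval 0.08 to 0.48, adjusted p = 0.0982) with EPZ004777, with all treated arrays above both DMSO arrays. REH gave 0.12 (95% interval -0.13 to 0.37, adjusted p = 0.564) with the combination.

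IL7R, the alpha chain of the interleukin 7 receptor and a survival receptor of lymphoid precursors, showed the largest fall of any member in MOLM-13. It read 9.25, 9.21 and 9.44 with EPZ004777, 8.41, 8.46 and 8.85 with MI-2-2, 6.97, 6.81 and 7.09 with the combination and 10.31, 10.41 and 10.16 with DMSO. The 4 groups did not overlap at all. The change was -0.99 ± 0.12 (SE, adjusted p = 0.000177) with EPZ004777, -1.72 ± 0.12 (SE, adjusted p = 5.62e-06) with MI-2-2 and -3.34 ± 0.12 (SE, adjusted p = 5.58e-09) with the combination, a signal 10.1-fold lower. The second probe set gave -2.14 for the combination at adjusted p = 4.6e-06.

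Mouse Il7r rose with the combination. It read 5.03, 5.39 and 5.41 with EPZ004777, 4.76, 5.35 and 5.06 with MI-2-2, 7.90, 7.62 and 6.79 with the combination and 2.88, 4.61 and 4.25 with DMSO. All treated arrays exceeded all DMSO arrays, and the combination exceeded every other group. The change was 3.52 ± 0.41 (SE, adjusted p = 2.45e-05) with the combination, 1.36 (95% interval 0.45 to 2.26, adjusted p = 0.0979) with EPZ004777 and 1.14 (95% interval 0.24 to 2.05, adjusted p = 0.187) with MI-2-2. The difference between MOLM-13 and the mouse cells was not tested, since they were measured on different arrays. The T and NK cell list, whose lymphoid cells also carry this receptor, read 5.51 to 6.03 with the combination and 4.98 to 5.09 with DMSO in the mouse cells. It read 5.515 to 5.697 with EPZ004777, overlapping with the combination, and 5.29 to 5.44 with MI-2-2. Cd3e, Cd3g and Cd8a of this list were below percentile 40 in the mouse cells. In MOLM-13, where IL7R fell, the list read 6.433 to 6.545 with the combination and 5.925 to 6.08 with DMSO. There it read 6.285 to 6.468 with EPZ004777 and 5.864 to 5.994 with MI-2-2. The part of this list in the result was not tested.

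In the lymphoid lines IL7R read 12.59 to 13.22 on all arrays, with no change called in limma and 2 at an unadjusted p under 0.05, both in REH. In RS4;11 the combination gave 0.11 (95% interval -0.03 to 0.24, adjusted p = 0.234) and in SEM 0.10 (95% interval -0.06 to 0.26, adjusted p = 0.31). In REH the EPZ004777 arrays (12.82, 12.86 and 12.86) and the combination arrays (12.85, 12.88 and 12.81) lay below the DMSO arrays (12.96 to 13.22) without overlap, and the changes were -0.21 (95% interval -0.40 to -0.03, adjusted p = 0.229) and -0.21 (95% interval -0.40 to -0.02, adjusted p = 0.161).

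**Figure D4:**
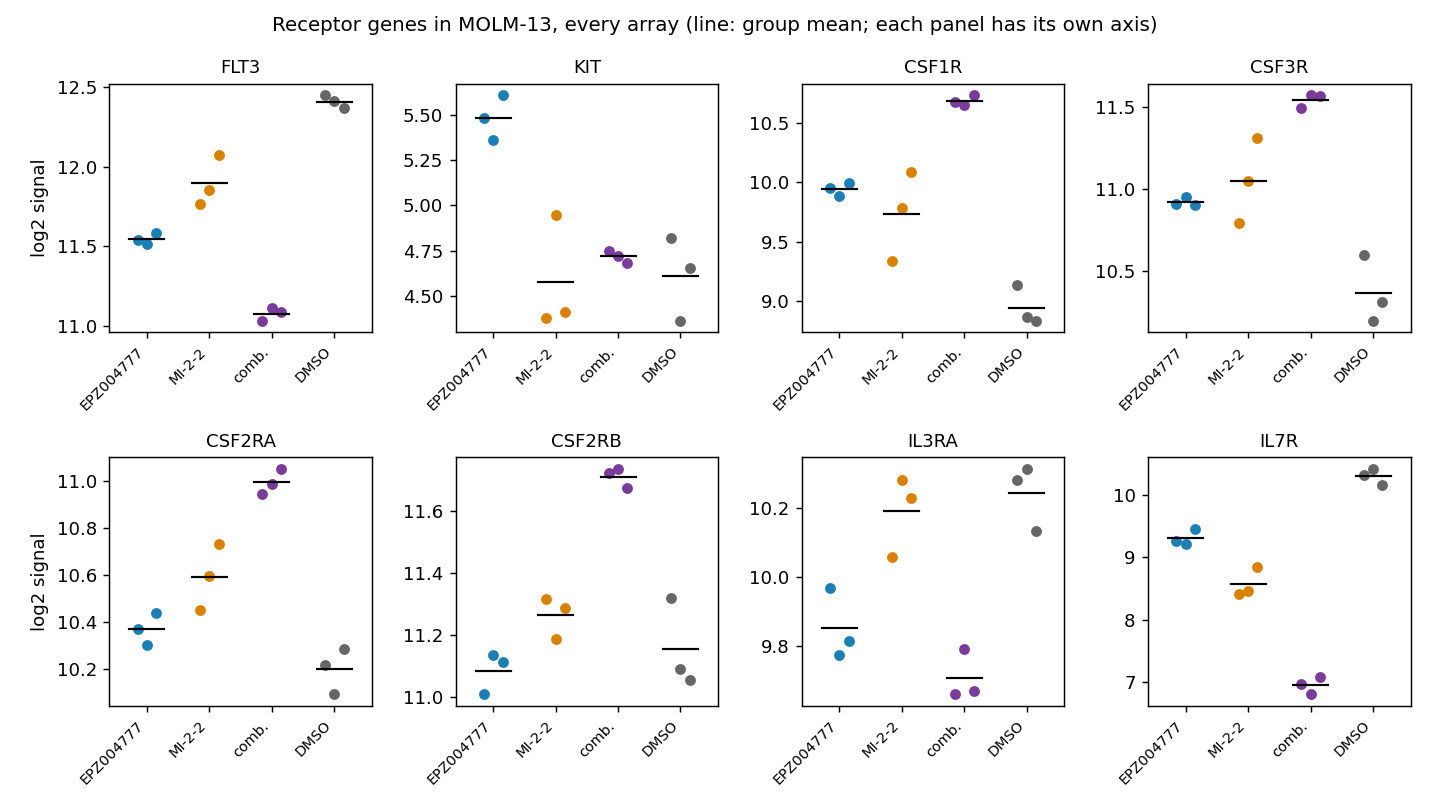
RMA log2 signal (vertical axis) of the 8 genes on each MOLM-13 array, with EPZ004777, MI-2-2, the combination and DMSO along the horizontal axis. With the combination IL7R reads 6.81 to 7.09 against 10.16 to 10.41 with DMSO, and CSF1R reads 10.65 to 10.74 with the combination against 8.84 to 9.14 with DMSO.

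**Figure D5:**
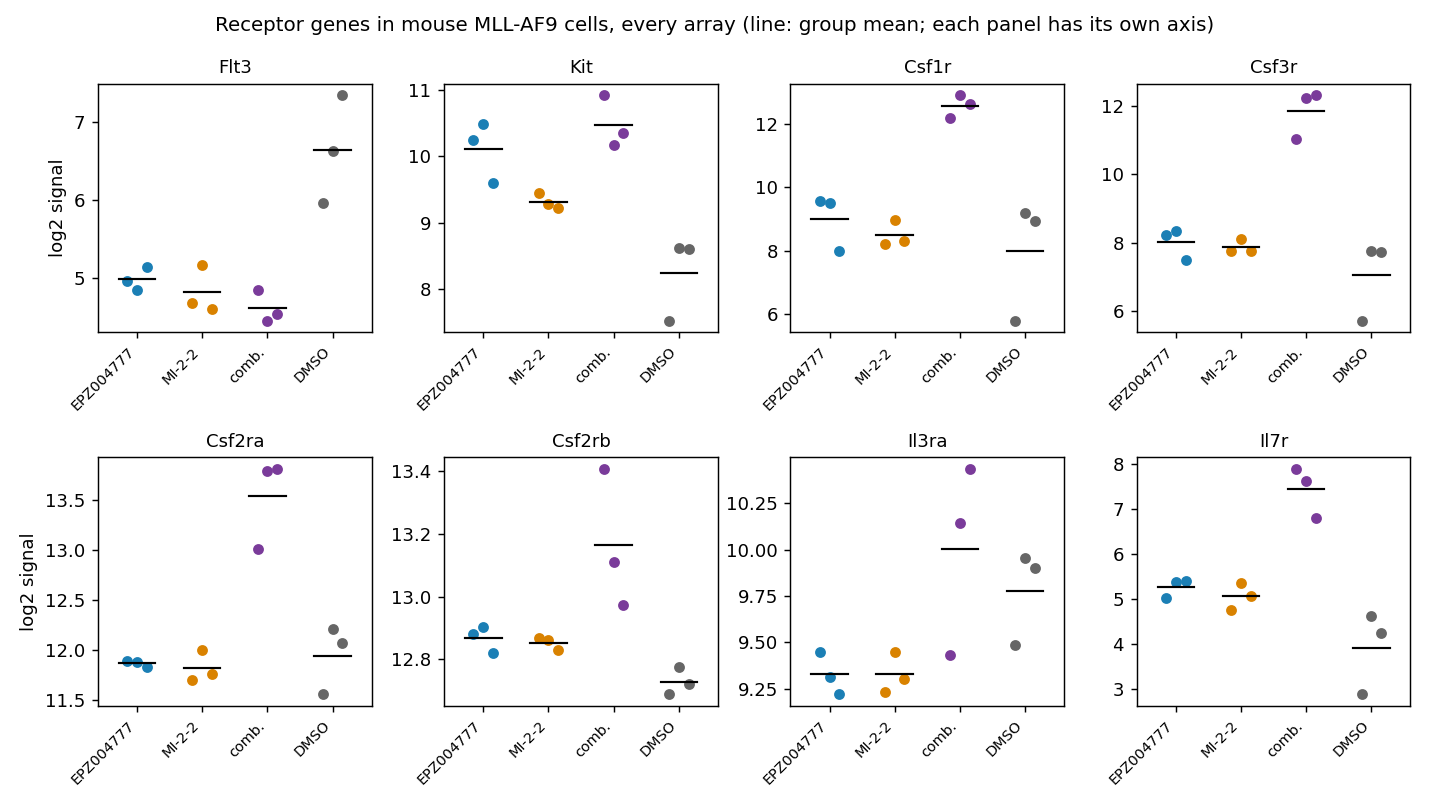
RMA log2 signal (vertical axis) of the 8 mouse genes on each array, with EPZ004777, MI-2-2, the combination and DMSO along the horizontal axis. Csf1r, Csf3r, Csf2ra and Il7r stand apart with the combination, and DMSO replicate 1 is the lowest DMSO array for Csf1r (5.80) and Csf3r (5.72).

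The combination was set against each single compound in the same fits. In MOLM-13 it differed from EPZ004777 in 6 of 7 members (33.0% of all genes) and from MI-2-2 in 7 (39.2%). For IL7R the combination was lower, with a difference of -2.35 ± 0.12 (SE, adjusted p = 5.03e-07) from EPZ004777 and -1.62 ± 0.12 (SE, adjusted p = 3.24e-06) from MI-2-2. On the second probe set, dim with MI-2-2 and the combination, they were -1.12, still called, and -0.49 at adjusted p = 0.0583. For FLT3 these differences were -0.47 ± 0.07 (SE, adjusted p = 0.000507) and -0.82 ± 0.07 (SE, adjusted p = 7.84e-06). IL3RA was the 1 member with no called difference from EPZ004777, at -0.15 (95% interval -0.32 to 0.03, adjusted p = 0.183).

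In the mouse cells the combination differed from EPZ004777 in 6 of 8 members (63.5% of all genes) and from MI-2-2 in 7 (62.6%). Flt3 differed from neither, at -0.37 (95% interval -1.02 to 0.28, adjusted p = 0.29) and -0.20 (95% interval -0.85 to 0.44, adjusted p = 0.568). Csf3r exceeded EPZ004777 by 3.84 ± 0.52 (SE, adjusted p = 8.87e-05) and MI-2-2 by 4.00 ± 0.52 (SE, adjusted p = 6.54e-05). The Il3ra calls ended without combination replicates 2 and 3 (0.10 at adjusted p = 0.653 against EPZ004777 and 0.10 at 0.657 against MI-2-2), and the Csf2rb calls ended on its second probe set. The uncalled difference of Kit between the combination and EPZ004777 was 0.36 (95% interval -0.34 to 1.07, adjusted p = 0.339).

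SEM had 3 of 6 members called against EPZ004777 (26.7% of all genes) and 2 against MI-2-2 (4.81%). CSF1R with the combination exceeded EPZ004777 by 2.24 ± 0.13 (SE, adjusted p = 2.05e-05) and MI-2-2 by 0.88 ± 0.14 (SE, adjusted p = 0.0119). The difference from MI-2-2 was not called without combination replicate 3 or MI-2-2 replicate 1 or 3 (adjusted p up to 0.0848), and that from EPZ004777 not with the actin covariate (3.54 at 0.051). IL3RA exceeded EPZ004777 by 1.16 ± 0.12 (SE, adjusted p = 0.000355), and its difference from MI-2-2 was 0.48 (95% interval 0.17 to 0.79, adjusted p = 0.0926). The difference of IL3RA from EPZ004777 was 2.21 at adjusted p = 0.242 with the actin covariate. FLT3, also called, differed from EPZ004777 by -0.24 ± 0.06 (SE, adjusted p = 0.0225), a call kept in 10 of 16 alternatives. CSF2RA, the other call against MI-2-2, exceeded it by 0.45 ± 0.10 (SE, adjusted p = 0.0402). That call was kept in 4 of 14 alternatives, and CSF2RA passed the filter in SEM only through treated arrays. RS4;11 had 2 of 6 called against EPZ004777 (19.5%), FLT3 at -0.45 ± 0.07 (SE, adjusted p = 0.000886) and CSF1R at 0.42 ± 0.11 (SE, adjusted p = 0.022). The CSF1R call was lost when replicate 2 or 3 of the combination or of EPZ004777 was left out (adjusted p up to 0.0782). Against MI-2-2 limma called 0 of 6 there (2 at an unadjusted p under 0.05, 10.8% of all genes called). In REH 1 of 7 was called against EPZ004777 (0.172% of all genes) and 1 against MI-2-2 (2.01%), both KIT, which exceeded EPZ004777 by 0.72 ± 0.13 (SE, adjusted p = 0.0491) and MI-2-2 by 1.37 ± 0.13 (SE, adjusted p = 0.000138). The KIT difference from EPZ004777 was called in 8 of 20 alternatives, was lost on leaving out any of 9 single arrays and had an adjusted p of up to 0.277, while that from MI-2-2 was called in all 20.

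The interaction term asks whether the combination departs from the sum of the 2 single log2 changes. In the mouse cells 5 of 8 members passed (48.2% of all genes), all with a positive term. It was 3.04 ± 1.09 (SE, adjusted p = 0.0396) for Csf1r, 3.03 ± 0.74 (SE, adjusted p = 0.00648) for Csf3r, 1.79 ± 0.31 (SE, adjusted p = 0.00098) for Csf2ra, 1.13 ± 0.32 (SE, adjusted p = 0.0133) for Il3ra and 1.46 ± 0.41 (SE, adjusted p = 0.014) for Flt3. The Csf1r term was called in 8 of 19 alternatives and lost on leaving out any of 9 single arrays (adjusted p up to 0.0945), with the actin covariate (0.108) and without combination replicates 2 and 3 (0.164). Without those 2 arrays the Csf3r and Il3ra terms were 2.20 at adjusted p = 0.0633 and 0.56 at 0.0632. Flt3, counted among the 5, passed the filter only through its 3 DMSO arrays, and its 3 treated groups all lie at the dim end. The combination could hardly fall there by the sum of the single changes. Its positive term therefore says nothing about how the compounds combine. In MOLM-13 2 of 7 passed (12.8%), CSF2RB at 0.51 ± 0.10 (SE, adjusted p = 0.00795) and IL7R at -0.63 ± 0.17 (SE, adjusted p = 0.0369). On the second probe set the IL7R term had the opposite sign, 0.52 at adjusted p = 0.247. There the MI-2-2 and combination arrays lay below percentile 40, at mean percentiles of 33.5 and 26.6. The IL7R term was called in 8 of 19 alternatives. It was lost on leaving out any of 7 single arrays (adjusted p up to 0.0859), without the filter (0.0548), with the actin covariate (0.0561) and on the mean of its probe sets (-0.05 at 0.835). FLT3 in MOLM-13 gave 0.04 (95% interval -0.18 to 0.26, adjusted p = 0.821). In RS4;11 limma passed 0 of 6 (0 at an unadjusted p under 0.05, 1.93% of all genes passed), in SEM 0 of 6 (1 at an unadjusted p under 0.05, 0.969%) and in REH 0 of 7 (0 at an unadjusted p under 0.05). No gene at all passed in REH, where 739 of 13961 had an unadjusted p under 0.05.

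The question whether lines with a KMT2A fusion respond unlike one without it was tested at matched doses and days, as the mean change in RS4;11 and SEM minus the change in REH. CSF3R was too dim in all 3 lines. With EPZ004777 3 of 7 members differed (5.25% of all genes), with MI-2-2 1 (13.6%) and with the combination 4 (20.7%). FLT3 with EPZ004777 differed by 0.55 ± 0.12 (SE, adjusted p = 0.00457), with RS4;11 at 0.07, SEM at -0.15 and REH at -0.60, and this call was lost without REH DMSO replicates 1 and 3 (adjusted p = 0.188). With the combination the FLT3 difference was 0.22 (95% interval -0.03 to 0.46, adjusted p = 0.219). KIT differed by -0.96 ± 0.17 (SE, adjusted p = 0.000601) with EPZ004777 and -1.71 ± 0.17 (SE, adjusted p = 5.52e-08) with the combination, and KIT was below the filter in RS4;11 and SEM. CSF1R differed by 0.79 ± 0.17 (SE, adjusted p = 0.00302) with MI-2-2 and 1.40 ± 0.17 (SE, adjusted p = 1.46e-06) with the combination, where SEM changed by 2.35, RS4;11 by 0.05 and REH by -0.21. SEM carried that mean. The CSF1R difference with MI-2-2 was 0.44 at adjusted p = 0.192 without REH DMSO replicates 1 and 3. IL3RA differed by 0.63 ± 0.14 (SE, adjusted p = 0.00148) with the combination, with SEM at 1.37, RS4;11 at 0.13 and REH at 0.12. IL7R differed by 0.29 ± 0.08 (SE, adjusted p = 0.0243) with EPZ004777 and 0.32 ± 0.08 (SE, adjusted p = 0.00537) with the combination, while its change in each line alone was uncalled. The IL7R difference with EPZ004777 was lost in 9 of 40 alternatives, namely 4 single arrays left out (RS4;11 DMSO replicate 3, SEM DMSO replicate 2, REH EPZ004777 replicate 1 and REH DMSO replicate 1), REH DMSO replicates 1 and 3 left out together (0.24 at adjusted p = 0.0889), the replicate block (0.30 at 0.0798), the fit of all 44 human arrays (0.29 at 0.106), the mean of its probe sets (0.20 at 0.488) and its second probe set (0.11 at 0.869). With the combination it was lost on the mean of its probe sets (0.26 at 0.227) and on the second (0.21 at 0.617). Line and fusion cannot be told apart with 1 line lacking the fusion.

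Other genes of these pathways came from 6 lists of 50 genes in all, ligands, other receptor chains, kinases and STATs, adaptors, inhibitors and targets. With the combination 14 of 38 tested were called in RS4;11, 20 of 38 in SEM, 2 of 40 in REH, 25 of 41 in MOLM-13 and 28 of 35 in the mouse cells, beside the shares of all genes given above. Their median change was 0.01, 0.04, 0.00, -0.02 and 0.49 in that order of models, against -0.04, -0.02, -0.01, 0.00 and -0.10 for all genes.

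In RS4;11 the ligand gene KITLG, which encodes stem cell factor, fell by 0.35 with the combination, and the receptor kinase gene PDGFRB was higher by 0.32 with MI-2-2. Of the kinases and STAT factors, STAT5B fell by 0.63, and JAK2 (0.37), STAT3 (0.36) and LYN (0.29) rose, all with the combination. The adaptor GAB2 fell by 0.37 and PIK3R1, a PI3-kinase subunit, rose by 0.28. SOCS2, a feedback inhibitor of cytokine receptors, fell by 2.81, the largest change of any listed gene in this line, while the inhibitors SOCS1 (0.83) and PTPN6 (0.36) rose. Among the targets PIM1, a survival kinase, rose by 0.60 with EPZ004777, MYC, a growth regulator, fell by 0.55 with the combination, and OSM, a cytokine gene, fell by 0.37 with MI-2-2.

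In SEM IL6R, a chain of the interleukin 6 receptor, rose by 3.26 with the combination, and PDGFRB rose by 1.23. IL2RG, the chain that pairs with IL7R, fell by 0.85 and IL6ST by 0.23, and FLT3LG, the ligand of FLT3, rose by 0.44. JAK2 rose by 1.46, whereas STAT5B (-0.77) and STAT5A (-0.73) fell with the combination and STAT3 (-0.49) with EPZ004777. GAB2 fell by 1.12, and SOS1, an adaptor that activates RAS, fell by 0.39 with MI-2-2. The inhibitor CBLB fell by 0.85 with MI-2-2, and CISH (0.60), PTPN6 (0.59) and, with MI-2-2, INPP5D (0.44) rose. Of the targets ID1 rose by 1.47 with MI-2-2, MYC fell by 1.18 with the combination, PIM2 rose by 0.50 and BCL2L1 fell by 0.38 with EPZ004777. With the actin covariate 2 of 46 called changes of listed genes were left in SEM.

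In REH SOCS2 rose by 0.98 with EPZ004777 and CRLF2, which pairs with IL7R in the receptor for TSLP, rose by 0.89 with the combination.

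In MOLM-13 CRLF2 (-1.40) and IL2RG (-1.16) fell with the combination beside IL7R, the chain they pair with, and IL6R (1.03) and IL6ST (0.59) rose. SYK (0.94), JAK2 (0.69) and TYK2 (0.60) rose with the combination, and JAK3, the kinase bound to IL2RG, fell by 0.89 with MI-2-2. The adaptors PIK3CD (0.64) and CBL (0.42) rose with the combination, and SOS1 (-0.49) and GAB2 (-0.40) fell with EPZ004777. SOCS2 fell by 3.27 and SOCS1 by 1.94 with the combination, and SOCS3 (-0.92) and CISH (-0.89) fell with EPZ004777. Targets fell as well, OSM by 2.54, MYC by 0.95 and PIM2 by 0.70 with the combination and PIM1 by 0.81 with EPZ004777. FLT3LG was higher by 0.20.

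In the mouse cells, where the values are for the combination, Csf1, the ligand of Csf1r, rose by 1.90. Crlf2 rose by 0.90 and Pdgfrb fell by 1.23. The kinases Jak2 (1.94), Syk (1.49), Jak1 (1.27) and Tyk2 (1.09) rose. The adaptors Cbl (1.71), Pik3cd (0.94) and Shc1 (0.77) rose and Pik3r1 fell by 0.71. Of the inhibitors Socs3 (3.65), Cish (1.67) and Ptpn6 (1.01) rose and Cblb fell by 1.41. The targets Myc (-2.09) and Pim2 (-0.89) fell, and Bcl2l1 (0.83) and Osm (0.61) rose. All changes named here were called.

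Genes whose pattern across the 16 human groups was most like each member were found by Pearson correlation of group means, as a description. Of the 16 points 4 are MOLM-13 groups, whose arrays have a higher median than the others and appear to have been normalized apart. A step between MOLM-13 and the other lines weighs on these correlations. For CSF3R the DMSO means were 10.14 in MOLM-13 and 3.69 in REH on the probe set used here. FLT3 was most like PARD6G (0.95), CHML (0.95) and HNF4G (0.95), and KIT most like SLC30A3, CERS4 and RGS9 (0.98 each or above). CSF1R was most like IL6R, RIN3 and ADCY7 (0.99 each). CSF3R followed ORM1, FGL2 and CHI3L1 (0.999 each), and CSF2RA followed LRMDA (0.998), RAB7B (0.997) and LY6K (0.997). CSF2RB was most like SLC66A2 (0.987), GNA13 (0.986) and AP3D1 (0.985), IL3RA most like MRPL33 (0.994), RILPL2 (0.992) and FCGR1BP (0.989), and IL7R most like ZFP36L1 (0.984), ICAM2 (0.980) and PSD3 (0.974).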

How the data were processed

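Total RNA (50 ng per array, per the labels' protocols) was amplified with the Nugen Ovation system and hybridised to Affymetrix arrays. The authors deposited 1 log2 signal for each probe set and array. RMA, the affy package and R 3.0.2 are named in the notes on processing by the submitters. The signals were used as given. MOLM-13 arrays have a higher median than the other human arrays and appear to have been normalized apart, so the design's DMSO level test was read for the 3 pairs of lymphoid lines and not for the 3 with MOLM-13.

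Probe sets were named through the platform annotation, and those with several symbols or none were left out (41091 human and 34945 mouse probe sets had 1). In each fit a gene was read on its brightest probe set by mean and kept if above percentile 40 on at least 2 arrays. Each model was fitted in limma 3.58.1 under R 4.3.3, with p-values adjusted by Benjamini-Hochberg over all genes. The script was tested on simulated data. A fit of 32 arrays compared changes between RS4;11, SEM and REH, and a fit of 44 human arrays compared DMSO levels. The members and lists were chosen with earlier results of these data known. All members are named, and of the listed pathway genes up to 4 called genes per list and model with the largest change in any treatment. Likeness took the 3 genes with the highest correlation.

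Replicate numbers were not used to pair the samples in the main fits. Within-group deviations of same-numbered arrays correlated over 0.1 in 2 of 15 pairs in RS4;11, 2 of 10 in SEM and 5 of 18 in REH. The count was 3 of 18 in MOLM-13 and 9 of 18 in the mouse cells. For different numbers it was 11 of 30, 7 of 20, 18 of 36, 8 of 36 and 14 of 36. In the mouse cells the median was 0.099 for the same number and -0.068 for different numbers, so this check cannot exclude pairing there. The alternatives left out the filter, quantile-normalized the values once more, averaged a gene's probe sets or took its second brightest, and used the replicate block, the actin covariate, a fit of all human arrays, and omission of each array, of REH DMSO replicates 1 and 3 or mouse combination replicates 2 and 3. Where that left 1 array in a group, its spread was taken as that of the other groups. Promoter sequences come from RefSeq, where CSF2RB had no window.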

Additional observations from a re-analysis of the deposited data

Results flagged for a closer look

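Several changes differed between the KMT2A-AFF1 lines and REH by the test of the difference itself. The mean log2 change in RS4;11 and SEM minus that in REH was 0.55 for FLT3, -0.96 for KIT and 0.29 for IL7R with EPZ004777. It was 0.79 for CSF1R with MI-2-2. With the combination it was -1.71 for KIT, 1.40 for CSF1R, 0.63 for IL3RA and 0.32 for IL7R. KIT was below the brightness filter in RS4;11 and SEM, and the differences in FLT3 and IL7R with EPZ004777 and in CSF1R with MI-2-2 were not called without REH DMSO replicates 1 and 3. On the second IL7R probe set neither IL7R difference was called (adjusted p = 0.869 with EPZ004777 and 0.617 with the combination). IL7R was lower on every treated MOLM-13 array and higher on every treated mouse array than on the DMSO arrays of the same model. In MOLM-13 its change was -3.34 with both compounds together, -1.72 with MI-2-2 alone and -0.99 with EPZ004777 alone. This difference between models was not tested.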

How the results depend on the processing

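Of 42 member changes called against DMSO, 26 were called in every alternative and 8 were lost when some single array was left out. Leaving out 1 array gave 0 to 3 calls in RS4;11 (2 with all arrays), 6 to 9 in SEM (9), 3 to 5 in REH (4), 17 in MOLM-13 (17) and 10 to 12 in the mouse cells (10). For pathway genes it gave 12 to 25 (22), 23 to 46 (46), 3 to 10 (5), 49 to 59 (54) and 27 to 43 (31) in the same models. For the combination against single compounds it gave 32 to 36 (35), for the interaction 6 to 8 (7), for RS4;11 and SEM against REH 7 to 9 (8) and for DMSO levels 16 to 17 (17). The replicate block gave 5 member calls and 27 pathway calls in SEM, and 2, 4, 17 and 10 member calls in RS4;11, REH, MOLM-13 and the mouse cells. With the actin covariate member calls were 0 in SEM and 2 in REH, and pathway calls 2 in SEM and 3 in REH. The count of 0 compares with 9 in limma without the covariate. In SEM the actin signal of MI-2-2 and combination arrays did not overlap with DMSO. Losing a call there thus cannot separate these treatments from the actin signal. Without REH DMSO replicates 1 and 3 there were 2 member and 3 pathway calls in REH, and the fit of all 44 human arrays gave 17 pathway calls there. On second probe sets the mouse cells had 6 member calls. Signs turned for FLT3 with MI-2-2 in SEM (0.041 with the actin covariate) and, on second probe sets, for the IL7R interaction in MOLM-13 (0.52), for Kit in the mouse cells, combination against MI-2-2 (-0.46), for mouse Csf2rb, combination against DMSO (-0.012), EPZ004777 (-0.26) and MI-2-2 (-0.19), and for the IL7R level in RS4;11 (0.18) and SEM (0.11) against REH. The causes were not tested. The number of arrays, 2 or 3 per group, limits what could be called. Signal at the dim end limits KIT, CSF3R, mouse Flt3 and Il7r and the second IL7R probe set in MOLM-13.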
